A study of Mus musculus with 6 samples.

Results

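The insulin-like growth factor (IGF) and insulin signalling genes of the mouse ovary were followed as 10 transcripts, chosen by name from the 56980 genes of the deposited table, and all 10 were found. They comprise the ligands Igf1 and Igf2, the receptors Igf1r, Igf2r and Insr, the adaptors Irs1 and Irs2, and the binding proteins Igfbp2, Igfbp4 and Igfbp5. RNA was sequenced from ovaries of ICR mice in 6 libraries. The FNZ group (replicates 2, 3 and 5) received daily intraperitoneal FNZ at 30 mg/kg over 7 days, dissolved in equal parts of polyethylene glycol 400 and saline, and the control group (replicates 2, 3 and 4) was injected with solvent. The labels give the compound only by these letters, the title of the study speaks of blocking T-type calcium channels, and the age of the mice is not stated. The labels mention 3 ovaries a group but not whether these came from separate mice, so the p-values measure the spread between these samples, which may be technical.

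IGF1 and IGF2 bind the receptor tyrosine kinase IGF1R, insulin binds the related INSR, and both receptors phosphorylate the adaptors IRS1 and IRS2, which recruit PI3K and so activate AKT. IGF2R has no kinase and carries IGF2 to lysosomes, and the IGFBP proteins hold IGFs in the extracellular fluid. In the mouse ovary, IGF1 is made mainly by granulosa cells of growing follicles, where it raises the response to follicle-stimulating hormone, and IGFBP4 and IGFBP5 are known as inhibitors of that action.

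Total estimated counts ran from 19333493 to 23406628 a library. Markers of granulosa cells (9 of 9), theca and steroidogenic cells (6 of 6), oocytes (7 of 7) and stroma (6 of 6) passed the filter on low counts, and no marker of these lists was at 0. Levels below are in CPM, counts scaled to each library's TMM size, which compare a gene between libraries. FNZ replicate 3 stood apart from the other FNZ libraries in most members, as the values show, and results whose call rests on it are given with and without it.

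No member passed the test between the groups. edgeR's quasi-likelihood test called 0 of the 10 members at a Benjamini-Hochberg adjusted p under 0.05, against 0.0% of the 17735 genes tested. Adjusted p of the members ran from 0.133 to 0.81. At an unadjusted p under 0.05 stood 4 members (Igfbp2, Igfbp4, Igfbp5 and Igf1r), against 23.2% of all genes. The CPM of the groups did not overlap in 5 members, those 4 and Irs1, against 29.6% of all genes (15.8% with FNZ above and 13.8% with FNZ below). The fold changes were positive in 3 members and negative in 7, with a median log2 fold change of -0.21, against 0.011 over all genes. DESeq2 called 2 members, Igfbp2 higher and Igfbp5 lower, where it called 10.1% of all genes (4.54% higher and 5.57% lower). limma voom called 0 members. The number called depended on FNZ replicate 3. Without it edgeR called 5, Igf1 and Igfbp4 higher and Igf1r, Irs1 and Igfbp5 lower, where it called 17.6% of all genes (7.99% higher and 9.64% lower). With Irs1 summed with Gm9747, a gene that overlaps it (below), edgeR without FNZ replicate 3 called 4, and Irs1 was not among them. It called 3227 of 18313 genes there. DESeq2 without that library called 8, all members but Igf2 and Irs2, against 27.6% of all genes (11.5% higher and 16.1% lower). In these whole ovaries, fewer cells of a type and less RNA per cell cannot be told apart.

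Levels were compared between members in TPM, which scales abundance by transcript length and by library. Igfbp4 had the highest mean, at 178 ± 1.88 TPM in FNZ and 170.2 ± 9.17 TPM in control ovaries (SD, n = 3 each). Igf1 measured 111 ± 33.2 TPM in FNZ and 93.3 ± 7.19 TPM in control ovaries, and Igfbp5 62.0 ± 26.9 TPM in FNZ and 128 ± 29.8 TPM in control ovaries. Igfbp4 lay above Igf1 in every library. Igf1 was above Igfbp5 in FNZ replicates 2 and 5 and below it in FNZ replicate 3 and all controls, and in control replicate 2 Igfbp5 (162 TPM) was also above Igfbp4 (159.6 TPM). Over all 6 libraries the mean TPM of the others ran in the order Igfbp2 (48.1), Igf1r (25.9), Igf2r (18.4), Insr (18.0), Igf2 (12.7), Irs1 (11.0) and Irs2 (7.97). The lowest library for Igfbp2, at 33.5 TPM, was above the highest for Igf1r, at 32.7 TPM. From Igf1r down to Irs2 each member's range overlapped that of its neighbour in this order. Single genes were compared between the groups in CPM and not TPM, because the median gene shifted by -0.17 on the log2(TPM + 1) scale, against 0.011 in the edgeR fit on counts.

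**Figure D1:**
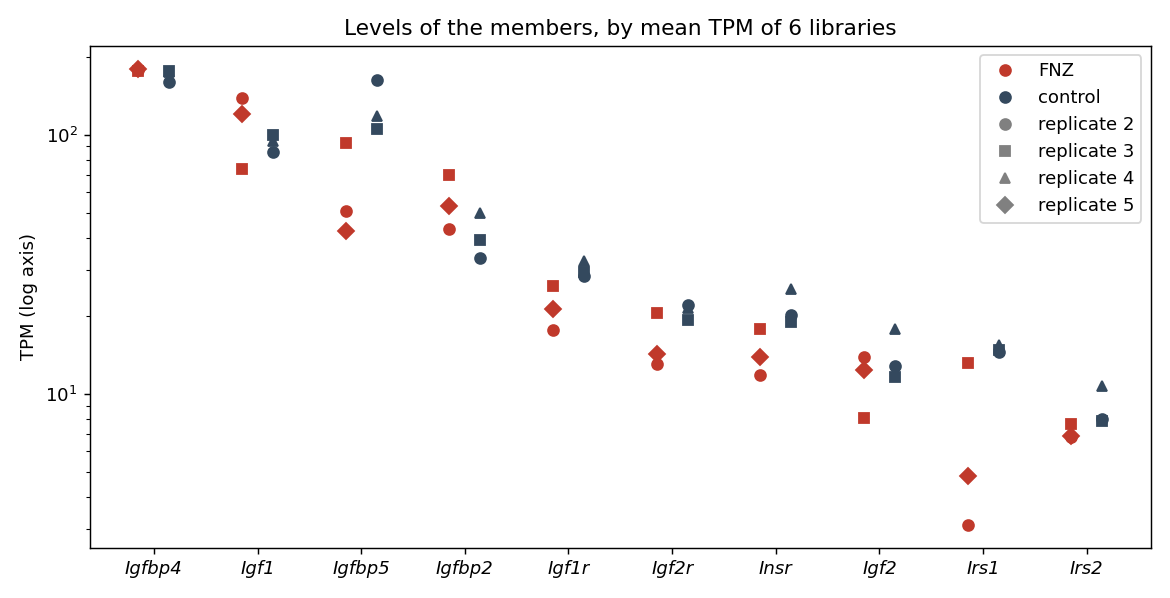
TPM of the 10 members in each library on a log axis, ordered by the mean of all 6 libraries, with FNZ in red left of control in dark blue and replicate numbers shown by symbol. Igfbp4 has the highest mean (159.6 to 179.5 TPM) and Irs2 has the lowest mean (6.83 to 10.7 TPM).

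Of the ligands, Igf1 (ENSMUSG00000020053, chromosome 10) split the FNZ group. It measured 314, 185 and 294 CPM in FNZ replicates 2, 3 and 5, against 211, 214 and 219.5 CPM in control replicates 2, 3 and 4. FNZ replicates 2 and 5 lay above every control and FNZ replicate 3 below every control, so the groups overlapped, and the SD was 69.0 CPM in FNZ and 4.53 CPM in control ovaries. The log2 fold change was 0.30 ± 0.19 (SE; edgeR adjusted p = 0.372). Without FNZ replicate 3 Igf1 was called higher, at 0.50 ± 0.083 on the log2 scale (edgeR adjusted p = 0.0147), whereas without FNZ replicate 2 the value was 0.17 (edgeR adjusted p = 0.701). Of the 9 granulosa markers, 8 were positive, 0 were called and 3 had an unadjusted p under 0.05, against 23.2% of all genes. They summed to 5848 to 6128 CPM in FNZ and 4663 to 4873 CPM in control ovaries. Their highest sum was in FNZ replicate 3, the library with the lowest Igf1, and their part in the result was not tested.

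Igf2 (ENSMUSG00000048583, chromosome 7), an imprinted growth factor, was the less abundant ligand by TPM in every library. It measured 19.1, 13.9 and 19.1 CPM in FNZ replicates 2, 3 and 5, against 20.0, 18.6 and 32.2 CPM in control replicates 2, 3 and 4. The groups overlapped, with FNZ replicate 3 lowest and control replicate 4 highest. The log2 fold change was -0.44 ± 0.24 (edgeR adjusted p = 0.305), and -0.16 without control replicate 4. That control library also had the highest summed markers of oviduct (594 CPM, against 2.63 to 30.6 CPM in the other 5 libraries) and surface epithelium (195 CPM, against 44.5 to 114 CPM), and their part in the result was not tested. Insulin itself was not detected: Ins1 and Ins2 had 0 counts in every library, which allows up to 0.155 CPM in the shallowest library (3 counts, counting error only).

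Of the receptors, Igf1r (ENSMUSG00000005533, chromosome 7) lay lower in every FNZ library than in any control. It measured 157, 192 and 168 CPM in FNZ replicates 2, 3 and 5, against 205, 216 and 204 CPM in control replicates 2, 3 and 4. The log2 fold change was -0.28 ± 0.11 (edgeR adjusted p = 0.185). Without FNZ replicate 3 it was called lower (-0.36 ± 0.084, edgeR adjusted p = 0.0307). With a correction for gene length, an offset that takes each library's trend of counts on length out of the fit, the direction turned, to 0.068 ± 0.085 with all libraries (edgeR adjusted p = 0.705) and 0.098 ± 0.086 without FNZ replicate 3 (edgeR adjusted p = 0.513).

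Insr (ENSMUSG00000005534, chromosome 8) and Igf2r (ENSMUSG00000023830, chromosome 17) had lower means in FNZ than in control ovaries, with groups that overlapped. Insr measured 96.2, 112.2 and 104 CPM in FNZ replicates 2, 3 and 5, against 121, 112.1 and 139 CPM in control replicates 2, 3 and 4. The groups met at FNZ replicate 3 and control replicate 3. Igf2r measured 101, 129 and 103 CPM in FNZ and 132, 116 and 126 CPM in control ovaries, with FNZ replicate 3 inside the control range. Log2 fold changes were -0.25 ± 0.11 for Insr and -0.17 ± 0.12 for Igf2r (edgeR adjusted p = 0.231 and 0.435), and with the length correction both were positive, at 0.075 ± 0.094 and 0.15 ± 0.084. Without FNZ replicate 3 and without that correction, edgeR gave -0.31 ± 0.11 for Insr and -0.29 ± 0.090 for Igf2r (adjusted p = 0.0975 and 0.0711), and DESeq2 called both lower (adjusted p = 0.0388 and 0.0156). Without FNZ replicate 2, Igf2r was -0.092 (edgeR adjusted p = 0.765). FNZ replicates 2 and 5 had the lowest CPM of the 6 libraries for all 3 receptors.

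**Figure D2:**
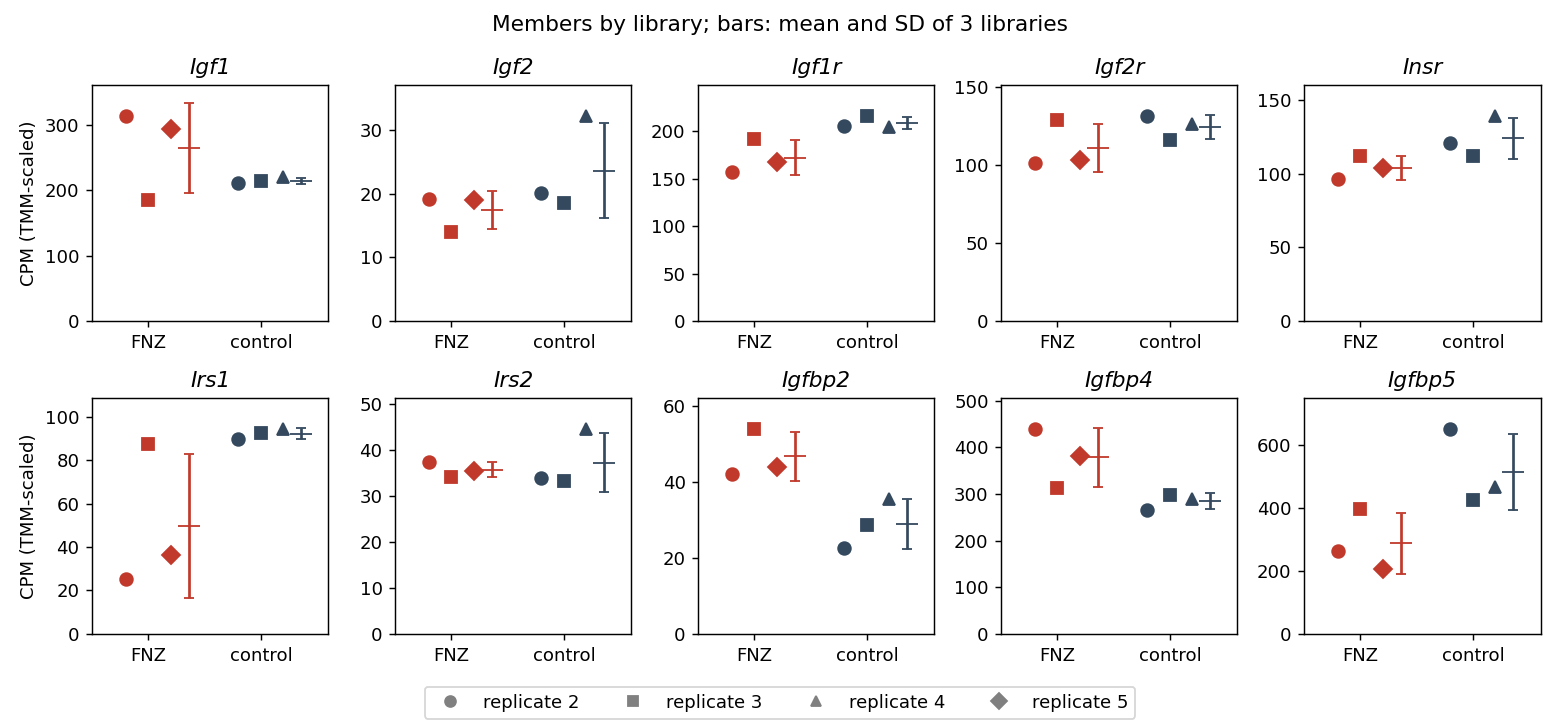
CPM of each member by library, FNZ (red) left of control (dark blue), with replicate numbers shown by symbol and the mean ± SD of 3 libraries beside the points. In Igf1, Irs1, Igfbp4 and Igfbp5, FNZ replicate 3 is the FNZ library closest to the controls or on their far side.

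Of the adaptors, Irs1 (ENSMUSG00000055980, chromosome 1) had the most negative fold change of the 10 members with all libraries. It measured 25.1, 87.2 and 36.5 CPM in FNZ replicates 2, 3 and 5, against 89.8, 92.4 and 94.4 CPM in control replicates 2, 3 and 4. All FNZ libraries lay below the controls, FNZ replicates 2 and 5 by a wide margin and FNZ replicate 3 by a narrow one. The log2 fold change was -0.89 ± 0.44 (edgeR adjusted p = 0.283), -1.59 ± 0.16 without FNZ replicate 3 (edgeR adjusted p = 0.00898) and -0.56 without FNZ replicate 2 (edgeR adjusted p = 0.502), where Igfbp5 was lower (-0.76).

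Part of Irs1 is also annotated as another gene, Gm9747, on the opposite strand. In GENCODE M21, where the Irs1 transcript has 9144 bases, as in the deposited table, 2822 bases of Gm9747 lie on the plus strand within the exons of Irs1, a gene of the minus strand. They cover bases 6312 to 9133 of the Irs1 transcript, counted from its start, which is 30.9% of its length and past the coding sequence (bases 924 to 4616). Gm9747, a predicted gene, was chosen after the values of Irs1 and its own were seen. It measured 105, 85.4 and 103 CPM in FNZ replicates 2, 3 and 5, against 65.8, 61.9 and 51.2 CPM in control replicates 2, 3 and 4. It lay higher in every FNZ library, the opposite of Irs1, 0.71 ± 0.13 apart on the log2 scale (edgeR adjusted p = 0.131, DESeq2 adjusted p = 0.00176).

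Summed, the gap between the groups closed. Irs1 plus Gm9747 came to 130.1, 172.5 and 139 CPM in FNZ replicates 2, 3 and 5, against 156, 154 and 146 CPM in control replicates 2, 3 and 4. FNZ replicate 3 was above, and FNZ replicates 2 and 5 below, all controls. The sum had a log2 change of -0.044 ± 0.12 (edgeR adjusted p = 0.857), and -0.18 ± 0.085 without FNZ replicate 3 (edgeR adjusted p = 0.197). Gm9747 took 80.7%, 49.5% and 73.8% of the summed reads in FNZ replicates 2, 3 and 5, against 42.3%, 40.1% and 35.2% in control replicates 2, 3 and 4. Whether reads were assigned by strand is not stated in the labels. In every library the deposited counts of Irs1 and Gm9747 were fractions that added up to a whole number (479.44 and 2005.56 in FNZ replicate 2). Shared reads were thus divided between these genes, and the level of Irs1 alone depends on that division. Reads of the Irs1 3′ end and of Gm9747 cannot be told apart here. What moved the share between them was not tested. Igf2 shares exon bases with Gm49394 and Igf2os, and Irs2 with 9530052E02Rik, but these had at most 8 counts in any library, and the other members share none in GENCODE M21.

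**Figure D3:**
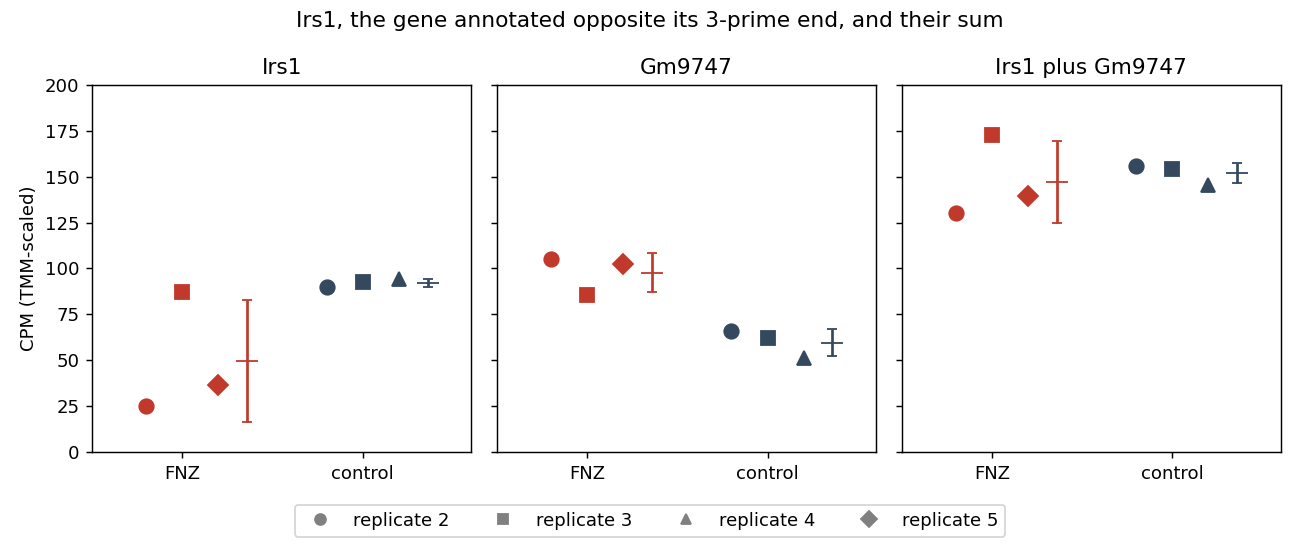
CPM of Irs1, of Gm9747 on the opposite strand over its 3′ end, and of their sum, by library, FNZ (red) left of control (dark blue), with mean ± SD of 3 libraries. Irs1 is lower and Gm9747 higher in FNZ, and the sums overlap, at 130.1 to 172.5 CPM in FNZ and 146 to 156 CPM in control ovaries.

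Irs2 (ENSMUSG00000038894, chromosome 8) differed by less than the spread between libraries. It measured 37.5, 34.3 and 35.4 CPM in FNZ replicates 2, 3 and 5, against 34.0, 33.3 and 44.7 CPM in control replicates 2, 3 and 4. Its log2 fold change was -0.063 ± 0.14 (edgeR adjusted p = 0.81), 0.084 without control replicate 4, and 0.20 ± 0.15 with the length correction.

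The 3 binding proteins did not share a direction. Igfbp2 and Igfbp5 are neighbouring protein-coding genes on chromosome 1 in RefSeq (GRCm38.p6), and their values lay on opposite sides of the controls. Their promoters and that of Igfbp4 (chromosome 11) are shown because these members of one family had the smallest edgeR p of the 10. The sequences are from RefSeq, 250 bases before to 50 bases after the annotated start, 5′ to 3′ on the gene's strand, for Igfbp2 at chr1:72824230-72824529 (plus strand, the start nearer to the principal GENCODE transcript of 2), Igfbp4 at chr11:99040994-99041293 (plus strand) and Igfbp5 at chr1:72874816-72875115 (minus strand), all GRCm38.p6. Capitals mark matches, on either strand, to 4 motifs, searched as TATAAA, bound by the TBP protein, as GGGCGG, bound by SP factors, as TGTTTAC, bound by FOXO and other forkhead factors, and as CACGTG, bound by E-box factors.
Igfbp2: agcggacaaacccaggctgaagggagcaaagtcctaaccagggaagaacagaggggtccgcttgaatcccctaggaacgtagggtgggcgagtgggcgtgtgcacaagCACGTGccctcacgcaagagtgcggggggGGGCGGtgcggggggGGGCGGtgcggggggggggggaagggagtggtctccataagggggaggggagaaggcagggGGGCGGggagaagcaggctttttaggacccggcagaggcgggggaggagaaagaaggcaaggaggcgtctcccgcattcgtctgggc
Igfbp4: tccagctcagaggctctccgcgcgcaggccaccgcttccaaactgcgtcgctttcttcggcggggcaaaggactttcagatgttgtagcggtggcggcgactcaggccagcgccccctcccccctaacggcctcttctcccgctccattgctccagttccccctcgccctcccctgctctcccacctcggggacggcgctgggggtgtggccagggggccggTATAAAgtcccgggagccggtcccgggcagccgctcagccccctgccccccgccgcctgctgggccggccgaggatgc
Igfbp5: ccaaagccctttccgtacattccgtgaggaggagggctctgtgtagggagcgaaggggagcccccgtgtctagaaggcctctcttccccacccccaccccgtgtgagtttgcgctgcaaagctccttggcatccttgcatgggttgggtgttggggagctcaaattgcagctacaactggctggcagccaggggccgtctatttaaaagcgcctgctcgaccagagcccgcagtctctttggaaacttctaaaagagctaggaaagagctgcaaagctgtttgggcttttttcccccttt
Igfbp2 held GGGCGG at 3 places and CACGTG at 1, with no overlap between matches, in a sequence of 67.0% GC. Igfbp4 held 1 TATAAA, and Igfbp5 held none of the 4 motifs at 56.3% GC. Of 32851 RefSeq promoters of this length, 35.7% hold GGGCGG, 13.6% hold TATAAA, 7.15% hold CACGTG and 3.65% hold TGTTTAC, and a match marks no binding site by itself. An entry was found for 9 of the 10 members, all but Insr.

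Igfbp2 (ENSMUSG00000039323), which also binds integrins and the matrix, had the smallest edgeR p of the members, whereas in DESeq2 Igfbp5 had a smaller one. It measured 42.2, 54.0 and 43.9 CPM in FNZ replicates 2, 3 and 5, against 22.6, 28.7 and 35.6 CPM in control replicates 2, 3 and 4. Every FNZ library lay above every control, with FNZ replicate 3 highest. This came to 0.69 ± 0.18 on the log2 scale, a ratio of 1.61 (edgeR adjusted p = 0.133, DESeq2 adjusted p = 0.0221). Without FNZ replicate 3 it was 0.57 ± 0.18 (edgeR adjusted p = 0.0746, DESeq2 adjusted p = 0.037). With the length correction it was 0.51 ± 0.21 and DESeq2 no longer called it (edgeR adjusted p = 0.263, DESeq2 adjusted p = 0.148). Of 6 theca and steroidogenic markers, 3 were positive and 3 negative, and 0 were called. An unadjusted p under 0.05 was seen in 3 of the 6, against 23.2% of all genes. Their sums, 4190 to 5906 CPM in FNZ and 3574 to 4098 CPM in control ovaries, separated the groups, as did the granulosa sums above. FNZ replicate 3 had the highest sums of both lists, and of smooth muscle markers (3790 CPM, against 1832 to 2538 CPM in the other 5 libraries). The part of these cells in the values of Igfbp2 and Igfbp4 was not tested.

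Igfbp4 (ENSMUSG00000017493), the binding protein that PAPPA cleaves, measured 440.4, 313 and 382 CPM in FNZ replicates 2, 3 and 5, against 266, 298 and 290.1 CPM in control replicates 2, 3 and 4. The groups did not overlap, and FNZ replicate 3 was closest to the controls. Between the groups the log2 difference was 0.41 ± 0.14 (edgeR adjusted p = 0.158, DESeq2 adjusted p = 0.0726). In TPM the groups overlapped, and limma gave 0.064 on the log2(TPM + 1) scale (adjusted p = 0.657). With the length correction the value was 0.52 ± 0.16 (edgeR adjusted p = 0.183), where DESeq2 called it higher (adjusted p = 0.0348, where it called 6.63% of all genes, 3.83% higher and 2.8% lower). That correction took the deposited length of 3831 bases, whereas the ratio of counts to TPM gave Igfbp4 a mean of 2560 to 2929 bases (below). A fit of Igfbp4 at that mean length was not run. Without FNZ replicate 3, edgeR called it higher with the length correction (0.66 ± 0.11, adjusted p = 0.0261, where it called 7.06% of all genes, 3.44% higher and 3.62% lower, and 3 members, Igf1, Igfbp4 and Irs1) and without it (0.53 ± 0.10, adjusted p = 0.0199).

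Igfbp5 (ENSMUSG00000026185), which also binds the extracellular matrix, measured 263, 395.5 and 207 CPM in FNZ replicates 2, 3 and 5, against 652, 426 and 466 CPM in control replicates 2, 3 and 4. The groups did not overlap, with FNZ replicate 3 and control replicate 3 closest to each other. On the log2 scale the change was -0.83 ± 0.26, a ratio of 0.561 (edgeR adjusted p = 0.145, DESeq2 adjusted p = 0.0189). It was -1.13 ± 0.22 without FNZ replicate 3 (edgeR adjusted p = 0.0255). With the length correction it was -0.62 ± 0.24 with all libraries (edgeR adjusted p = 0.24, DESeq2 adjusted p = 0.0701) and -0.81 ± 0.25 without FNZ replicate 3 (edgeR adjusted p = 0.118), so both calls ended. Macrophage markers, all 6 of them negative and 0 called, summed to 106 to 142 CPM in FNZ and 124 to 237 CPM in control ovaries. Of the 6, 3 had an unadjusted p under 0.05, against 23.2% of all genes. Control replicate 3 was the lowest control for this sum, as for Igfbp5, but also for the stroma and endothelial sums. Within FNZ the macrophage sum was highest in replicate 2 (142 CPM, against 133 CPM in replicate 3), whereas Igfbp5 was highest in replicate 3. Endothelial markers, all 4 negative, 1 at an unadjusted p under 0.05 and 0 called, summed to 194 to 292 CPM in FNZ and 221 to 335 CPM in control ovaries. The part of these cells in the result was not tested.

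**Figure D4:**
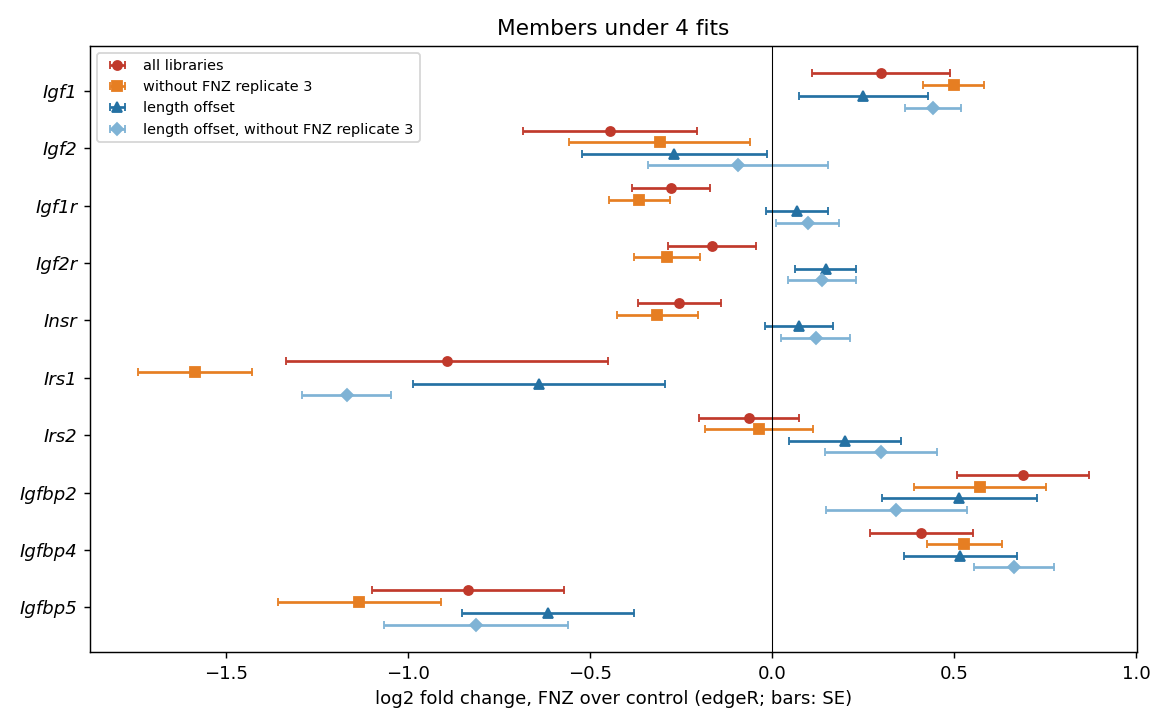
Log2 fold changes (FNZ over control, edgeR) of the 10 members with SE bars, from top to bottom, with all libraries, without FNZ replicate 3, with a length correction (length offset), and with both. Igfbp2 and Igfbp4 stay positive and Igfbp5 and Irs1 (taken without Gm9747) negative in all 4 fits, whereas Igf1r, Igf2r, Insr and Irs2 are negative without and positive with the length correction.

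Gene length ran with these fold changes. Over the 17735 genes the median log2 fold change was 0.37 in the decile of shortest genes and -0.28 in the longest. The members are long (median 6164.5 bases, against 2705 bases over all genes), and 6 of them (Igf1r, Insr, Irs1, Igf2r, Irs2 and Igfbp5) are in the longest decile. Igf1r (-0.28) and Insr (-0.25) lay at or near the median of that decile, whereas Irs1 (-0.89) and Igfbp5 (-0.83) were below it and Irs2 (-0.063) above it. By deposited length, Igfbp4 (0.41) is in a decile of median -0.11, and Igfbp2 (0.69) in one of median 0.23. The mean length of Igfbp4 from counts and TPM, 2560 to 2929 bases, falls in deciles of median 0.045 and -0.011. With the length correction 7 members were positive and 3 negative, with a median of 0.11 against 0.022 over all genes, and edgeR called 0 of the 10, against 0.0% of all genes.

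**Figure D5:**
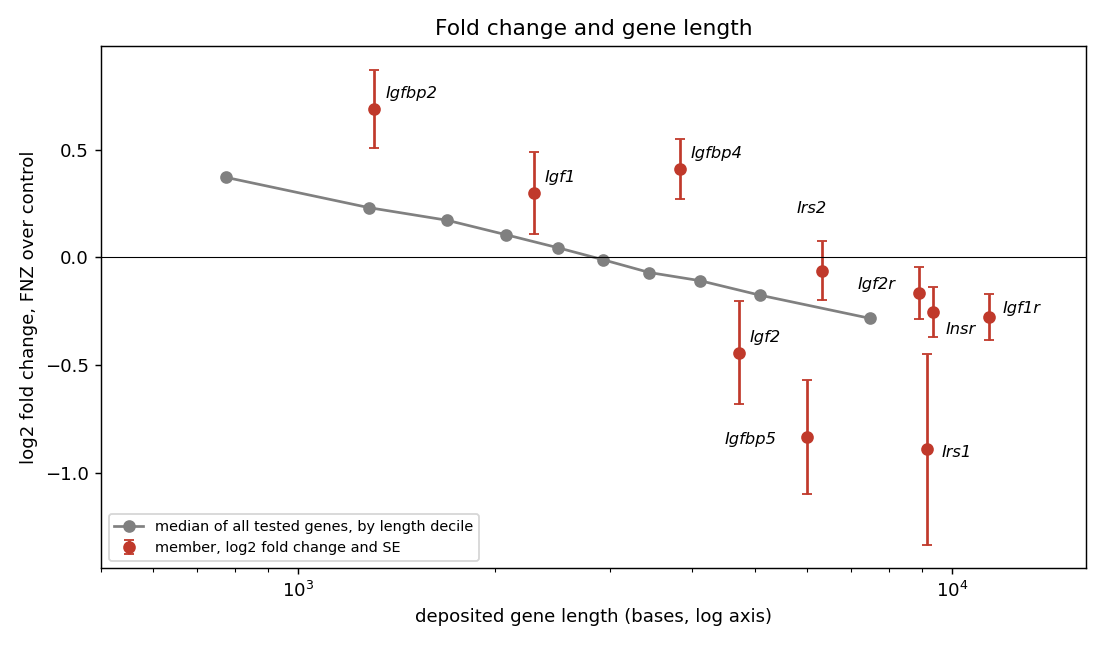
Log2 fold change (FNZ over control, SE bars) of the 10 members against deposited gene length, with the median of all tested genes in each length decile in grey, at that decile's median length. The grey line runs from 0.37 to -0.28, with Igf1r, Insr and Igf2r close to it, Igfbp2 and Igfbp4 above it and Igfbp5 and Irs1 below it.

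Ratios between members, which set genes of one library against each other, were compared with two-sided exact permutation tests, whose smallest possible p is 0.1 with 3 libraries a group. The TPM ratio of Igf1r to Insr was 1.48, 1.46 and 1.52 in FNZ replicates 2, 3 and 5, against 1.42, 1.56 and 1.28 in control replicates 2, 3 and 4. It overlapped between the groups (difference of log2 ratios 0.07, exact p = 0.5). The ratio of Irs1 to Irs2 was 0.457, 1.74 and 0.704 in FNZ replicates 2, 3 and 5, against 1.81, 1.89 and 1.44 in control replicates 2, 3 and 4, a difference of -1.05 (exact p = 0.2) with Irs1 taken without Gm9747. The ratio of the 3 summed binding proteins to the 2 summed ligands was 1.79, 4.14 and 2.07 in FNZ replicates 2, 3 and 5, against 3.61, 2.88 and 3.05 in control replicates 2, 3 and 4. FNZ replicates 2 and 5 were below and FNZ replicate 3 above all controls (difference -0.35, exact p = 0.4). Adjusted over these 3 comparisons by Benjamini-Hochberg, none of the exact p-values was under 0.5.

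Other genes of the pathway were described from 6 lists of 44 genes, of which 38 were tested. edgeR called 0 of the 38 (0.0% of all genes), and 12 had an unadjusted p under 0.05, against 23.2% of all genes. Of the 38, 11 were positive and 27 negative. Their median log2 fold change was -0.17, against 0.011 over all genes, and -0.078 with the length correction, against 0.022 over all genes. DESeq2 called 2 higher and 1 lower, against 10.1% of all genes. Adaptors and receptor brakes made up most of those that stood apart: of 16, the groups did not overlap in 11, with 2 above and 9 below the controls, against 29.6% of all genes (15.8% above and 13.8% below). These CPM carry no length correction. The median log2 fold change of the 16 was -0.24, and -0.14 with the length correction. Grb14, which binds the active insulin receptor and blocks its kinase, measured 584 ± 107 CPM in FNZ and 338 ± 19.4 CPM in control ovaries (SD, n = 3 each), a log2 difference of 0.79 ± 0.15 (edgeR adjusted p = 0.131, DESeq2 adjusted p = 0.000338) and 0.70 with the length correction. Cbl, a ubiquitin ligase of receptor tyrosine kinases, measured 58.3 ± 17.4 CPM in FNZ and 96.9 ± 1.53 CPM in control ovaries (log2 fold change -0.73 ± 0.19, edgeR adjusted p = 0.133, DESeq2 adjusted p = 0.0131). Cbl is 11372 bases long, and its value was -0.41 with the length correction.

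Of 4 other binding proteins tested, the groups did not overlap in 1, against 29.6% of all genes. This was Igfbp7, a secreted protein of low affinity for IGFs. It measured 757, 483 and 502.5 CPM in FNZ replicates 2, 3 and 5, against 359, 347 and 365 CPM in control replicates 2, 3 and 4. Its log2 fold change was 0.70 ± 0.18 (edgeR adjusted p = 0.132, DESeq2 adjusted p = 0.01), and that of Igfbp3 was -0.34 ± 0.16 (edgeR adjusted p = 0.251). Igfbp7 is 1200 bases long. With the length correction Igfbp7 was 0.48 and Igfbp3 -0.37 (edgeR adjusted p = 0.173 and 0.271). Of the 6 proteases of binding proteins and their inhibitors, Pappa2, which cleaves IGFBP5, measured 0.837, 2.04 and 0.313 CPM in FNZ replicates 2, 3 and 5, against 4.17, 1.27 and 5.89 CPM in control replicates 2, 3 and 4. These few counts overlapped between the groups (log2 fold change -1.81 ± 0.75, edgeR adjusted p = 0.209), and Stc2, an inhibitor of pappalysins, had -0.28 ± 0.24 (edgeR adjusted p = 0.513). Of 8 genes of growth hormone input, Stat5b and Stat5a had -0.32 ± 0.14 and -0.69 ± 0.33 (edgeR adjusted p = 0.214 and 0.259). Both were called lower without FNZ replicate 3 (edgeR adjusted p = 0.0385 and 0.0128, against 9.64% of all genes). With the length correction and all libraries they were -0.13 and -0.62 (edgeR adjusted p = 0.573 and 0.335). Of 3 Igf2 partners tested, H19, the imprinted RNA beside Igf2, had -0.25 ± 0.27 and Igf2bp2 -0.12 ± 0.21 (edgeR adjusted p = 0.611 and 0.765), and the receptor Insrr had -0.065 ± 0.35 (edgeR adjusted p = 0.928), or 0.12 with the length correction.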

How the data were processed

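Poly(A) RNA of 6 ovary libraries was sequenced with paired-end reads, per the labels' protocols. Base calls came from bcl2fastq 2.20 and the differential test from DESeq2 1.38.3 with GRCm39 as genome, per the submitters' processing notes. Aligner, counter and annotation remain not given in the sources used here. The authors deposited expected counts per library, not whole in 12.0% to 14.8% of values. TPM per library, group mean TPM (not used), gene length, fold change (not used), a log2 ratio, and a raw and adjusted p-value were also deposited by the authors.

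After rounding, expected counts were compared by edgeR 4.0.16 in R 4.3.3 (TMM, filterByExpr, robust quasi-likelihood F test, two-sided) over the whole table, with Benjamini-Hochberg adjustment over 17735 genes and a threshold of 0.05. The design assumed whole counts. CPM errors are SDs over 3 libraries. Alternatives used DESeq2 1.42.0, limma 3.58.1 and a length correction, an offset per library from loess (span 0.3) of log2 CPM (prior count 2) against log2 length. The tests were tried on simulated data. The 10 members, the gene lists and the tests were chosen with earlier results of these data known. Named were all members, the 2 genes of each pathway list with the smallest edgeR p and the 3 genes of at least 1 CPM most like the member with the smallest p; Gm9747 was chosen after its values were seen. Lists of other cells covered granulosa, theca, luteal, oocyte, stroma, smooth muscle, endothelium, macrophage, surface epithelium, oviduct, adipocyte, erythroid and liver markers. Chromosomes and exon overlaps are from GENCODE M21 (GRCm38). Depth limits precision, and PCR copies are not independent molecules, so the limit for 0 counts covers counting error only.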

Additional observations from a re-analysis of the deposited data

How the results depend on the processing

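The 10 members were refitted under 24 settings, giving 204 values, since the settings with Irs1 and Gm9747 summed were compared for Irs1 only. Of these values 170 kept their direction and their side of the threshold, 19 kept their direction and passed it, and 15 turned. The number of members called was 0 in edgeR, against 2 with DESeq2, 1 with DESeq2 and the length correction, 3 with the length correction without FNZ replicate 3, 4 with Irs1 and Gm9747 summed without FNZ replicate 3, 2 with that sum in DESeq2 and 8 with DESeq2 without FNZ replicate 3. Leaving out each library in turn gave 0 to 5 members. Over all genes edgeR called 0, DESeq2 called 1497 of 14799, and 3230 of 18314 were called by edgeR without FNZ replicate 3. With Irs1 and Gm9747 summed, edgeR without FNZ replicate 3 called 3227 of 18313 genes, and DESeq2 with all libraries 1511 of 14798. DESeq2 with the length correction, DESeq2 without FNZ replicate 3 and the sums with Gm9747 were chosen after seeing the data. With the length correction in edgeR, Igf1r was 0.068, Igf2r 0.15, Insr 0.075 and Irs2 0.20 (log2 fold changes), and DESeq2 gave 0.068, 0.15, 0.074 and 0.20. Without FNZ replicate 3 they were 0.098, 0.14, 0.12 and 0.30. Irs1 summed with Gm9747 was 0.27 with the length correction, and Irs2 ran from -0.14 to 0.084 when each library was left out, the highest without control replicate 4. The ratio of Igf1r to Insr had a log2 difference of -0.029 from CPM per kilobase. Leaving out each library, it ran from 0.00070 to 0.14, that of Irs1 to Irs2 from -1.59 to -0.62, and that of binding proteins to ligands from -0.71 to -0.11. Of the 38 other pathway genes tested DESeq2 called 3, against 10.1% of all genes, and leaving out each library gave 0 to 10. The highest, 10 (3 higher and 7 lower), was without FNZ replicate 3, against 17.6% of all genes (7.99% higher and 9.64% lower). Replicate numbers are shared by replicates 2 and 3 only, whose deviations from the group means correlated at -0.0846 and -0.135 between the groups, so the numbers were not taken as pairs. With the replicate block, edgeR called 0 members and 24 genes, Irs2 was 0.093, and the log2 difference of Igf1r to Insr was -0.015.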

Other observations

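The mean transcript length of the members was read from the 2 kinds of deposited value. The ratio of a gene's count to its TPM in a library is proportional to the mean length of the transcripts assigned to it, and it was scaled here on 447 genes with a single GENCODE M21 transcript of the deposited length (at least 2000 bases, 3 TPM and 200 counts in every library). Irs1, Irs2, Igfbp5 and Igf2r kept nearly the same length in all 6 libraries, within 0.669%, 0.665%, 1.08% and 1.51% of the lowest. Irs1 and Irs2 have 1 annotated transcript each, which fixes their length, and Igfbp5 and Igf2r have 2 and 3. Igf1, which has 8 annotated transcripts of 510 to 7052 bases, had a mean length of 2690, 3652 and 3102 bases in FNZ replicates 2, 3 and 5, against 3779, 3272 and 3633 bases in control replicates 2, 3 and 4. Igf2, with 9 transcripts of 376 to 4722 bases, had 1630, 2516 and 1959 bases in FNZ replicates 2, 3 and 5, against 2409, 2453 and 2830 bases in control replicates 2, 3 and 4. In both ligands FNZ replicates 2 and 5 had the shortest mean lengths of the 6 libraries, and FNZ replicate 3 lay within the control range. Igfbp4 and Insr went the other way, with the longest in FNZ replicates 2 and 5. Igfbp4 had 2929, 2588 and 2701 bases in FNZ replicates 2, 3 and 5, against 2560 to 2597 bases in controls. Insr had 9607, 9168 and 9477 bases, against 8546 to 9266 bases. In Igf1r and Igfbp2, FNZ replicates 2 and 5 were not both at either end. No test was made of a measure chosen after seeing the values.

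Igfbp2 was most alike, over the 6 libraries, to Clec1a (Pearson's r = 0.99), Tex9 (0.99) and Rimklb (0.98), computed on log2(CPM + 0.5). The libraries fall into 2 groups and the 3 genes were picked from all tested genes of at least 1 CPM, so these values describe the likeness and carry no test. Clec1a measured 58.5, 66.5 and 58.9 CPM in FNZ replicates 2, 3 and 5, against 45.3, 51.7 and 55.3 CPM in control replicates 2, 3 and 4, the same order of libraries as Igfbp2 within both groups.

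The remaining marker lists had 0 called genes and varied within both groups. Luteal markers summed to 65.9 to 175 CPM in FNZ and 89.4 to 136 CPM in control ovaries, oocyte markers to 508 to 911 CPM in FNZ and 430.1 to 785 CPM in control ovaries, and stroma markers to 2749 to 3091 CPM in FNZ and 2574 to 3203 CPM in control ovaries. Adipocyte markers summed to 24.2 to 187 CPM in FNZ and 32.9 to 191 CPM in control ovaries, and erythroid markers to 211 to 1033 CPM in FNZ and 517 to 940.2 CPM in control ovaries. The 3 liver markers, of which 1 was tested, summed to 48.3 to 87.1 CPM in FNZ and 27.9 to 48.0 CPM in control ovaries. These liver sums did not overlap between the groups, by a narrow margin. In the authors' deposited table, Igfbp2 and Igfbp5 had adjusted p of 0.0223 and 0.0189, and no member was marked significant there.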
